A study of Homo sapiens with 24 samples.

Results

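The mRNAs described here encode 10 proteins of the endoplasmic reticulum (ER) and its unfolded protein response (UPR): HSPA5, HSP90B1, HYOU1, CALR, PDIA4, PDIA6, SDF2L1, DNAJB9, HERPUD1 and XBP1. They were taken by symbol from the deposited tables of exon and intron counts, which hold 60308 and 37473 genes. All 10 have an exon row and 9 have an intron row. The cells were U2OS, an established human osteosarcoma line, so that 1 cell line stands for all results. Ctrl cells received 0.12% DMSO for 2 h. NaAsO2 cells received sodium arsenite at 500 µM for 60 min, which causes oxidative stress and assembly of stress granules. RK-33 cells received 6 µM of the DDX3 inhibitor RK-33, given as a pre-treatment of 1 h, and Combo cells received the same pre-treatment before NaAsO2. After detergent lysis and removal of nuclei, each lysate was spun into a soluble and an insoluble cytoplasmic fraction, the latter enriched for stress granules and P-bodies, and RNA was sequenced after rRNA depletion. With 3 replicates of each of the 8 treatment and fraction groups there were 24 libraries from 12 lysates.

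The ER is where secreted and membrane proteins enter the secretory pathway, and their mRNAs are translated by ribosomes bound to the ER membrane. Chaperones of its lumen fold these proteins, and an excess of unfolded protein is sensed by IRE1, PERK and ATF6, which raise transcription of chaperone and degradation genes. IRE1 does so by splicing XBP1 mRNA in the cytoplasm, while ATF6 and spliced XBP1 protein bind short promoter elements named ERSE, ERSE-II and UPRE.

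These elements are shown because they are what the promoters of most of the 10 genes share beyond their symbols. In RefSeq windows of 250 bases before to 50 bases after the gene start (GRCh38.p14), all 10 genes were matched, with 13 windows in all because PDIA4, PDIA6 and XBP1 have a pair each. ERSE was searched on both strands as CCAAT and CCACG separated by 9 bases. It stood without mismatch in windows of HSPA5, HSP90B1, CALR, PDIA6 and XBP1, and in 0.0769% of all 35116 windows. ERSE-II, ATTGG and CCACG with 1 base between them, stood in HERPUD1, SDF2L1 and HYOU1 and in 0.0541% of all windows. In the lines that follow, each sequence is read 5′ to 3′ on the strand of the gene and capitals mark the fixed bases of the element, which appear as CGTGG and ATTGG or CCAAT where the element lies on the opposite strand.
HSPA5, ERSE at chr9:125241386-125241414, minus strand: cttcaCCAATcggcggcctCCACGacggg
HSP90B1, distal ERSE at chr12:103930211-103930239, plus strand: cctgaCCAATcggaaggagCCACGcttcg
HSP90B1, proximal ERSE at chr12:103930316-103930344, plus strand: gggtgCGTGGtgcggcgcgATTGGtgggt
CALR, ERSE at chr19:12938379-12938407, plus strand: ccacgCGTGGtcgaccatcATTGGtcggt
PDIA6, ERSE at chr2:10812848-10812876, minus strand: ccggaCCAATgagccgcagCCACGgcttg
XBP1, ERSE at chr22:28800598-28800626, minus strand: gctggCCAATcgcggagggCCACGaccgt
HERPUD1, ERSE-II at chr16:56932016-56932044, plus strand: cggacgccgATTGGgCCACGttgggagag
SDF2L1, ERSE-II at chr22:21642105-21642133, plus strand: cctcggaagCGTGGaCCAATcaaaaccct
HYOU1, distal ERSE-II at chr11:119057371-119057399, minus strand: gccccgtgaCGTGGtCCAATcccaggccg
HYOU1, proximal ERSE-II at chr11:119057265-119057293, minus strand: ggcctgggaCGTGGtCCAATgagtacgcg
The element lay 48 to 66 bases before the start in HSPA5 and 34 to 52 bases before it in XBP1. With 1 mismatch allowed, ERSE was also found in HERPUD1, SDF2L1 and HYOU1, and in 1.55% of all windows. The site found this way in SDF2L1 overlaps its ERSE-II. UPRE, searched as TGACGTGG, stood in HYOU1, where it overlaps the distal ERSE-II, and in 0.729% of windows. PDIA4 and DNAJB9 held none of these letters in their windows, which says nothing of the factors. The PDIA6 and HSP90B1 sites lie inside the spans of these genes in the annotation used for counting, as does the HYOU1 site found with 1 mismatch.

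Exon counts per library ranged from 8627294 to 15376554 and intron counts from 1621536 to 6092652. Levels of the 10 mRNAs are CPM, a count relative to the depth of its library, scaled by edgeR's TMM factors. The cell marker levels below are CPM without these factors, and RN7SL1 shares are percentages of exon counts. A gene passed where edgeR's quasi-likelihood test over 17666 exon rows or 17406 intron rows gave a Benjamini-Hochberg adjusted p under 0.05. The study's methods describe 3 repeats of the fractionation in every condition, and since the labels say nothing of the cultures behind them, p-values measure the spread between these samples. RN7SL1, the abundant RNA of the signal recognition particle, held 7.51% to 15.5% of exon counts in the soluble libraries. In the insoluble libraries its share was 0.426% to 1.23%, except for replicate 3 of NaAsO2 insoluble, where it was 5.79%. This library stood apart for several of the 10 mRNAs as well, so results that rest on it are given with and without it. Replicate 3 was also the furthest from the others in RK-33 soluble, with an RN7SL1 share of 15.5%, and in Combo insoluble, with 1.23%. HMOX1, a target of oxidative stress, rose with NaAsO2 by a log2 fold change of 1.90 ± 0.14 (SE) in soluble and 1.77 ± 0.15 in insoluble libraries. Of 10 osteoblast-lineage markers, 5 had a median of at least 1 CPM, among them RUNX2, COL1A1 and SPARC, while SP7, BGLAP, IBSP, COL1A2 and TWIST1 were below it. Of 10 markers of other cells, 7 had a median of at least 1 CPM, with the keratin genes KRT8 and KRT18 at 265 and 183 CPM and VWF, CDH1, EPCAM, PECAM1 and PTPRC between 1.14 and 8.98 CPM. The other 3 were below it, with CD3E and ALB at 0. The part of these markers in the results was not tested.

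Per length of merged exons, CALR was the most abundant of the 10 mRNAs in Ctrl soluble, at 251 ± 12.9 RPKM (CPM per kilobase, mean ± SD, n = 3). CALR encodes calreticulin, a lectin chaperone that binds calcium. HSPA5, which encodes the ER Hsp70 BiP, and PDIA6, a disulfide isomerase, followed at 102 ± 6.76 and 92.9 ± 4.87 RPKM. The means of PDIA4, XBP1, HSP90B1 and SDF2L1 then lay within 35.5 to 37.5 RPKM, a span of the size of their SDs (0.77 to 2.09), and their order is not resolved. HERPUD1 at 26.8 ± 1.80 and HYOU1 at 25.3 ± 1.62 RPKM were also within an SD of each other. DNAJB9, a co-chaperone of BiP, was lowest at 6.41 ± 0.58 RPKM. The merged exons of HSP90B1 span 13092 bases, which lowers its RPKM relative to a measure over a single transcript.

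**Figure D1:**
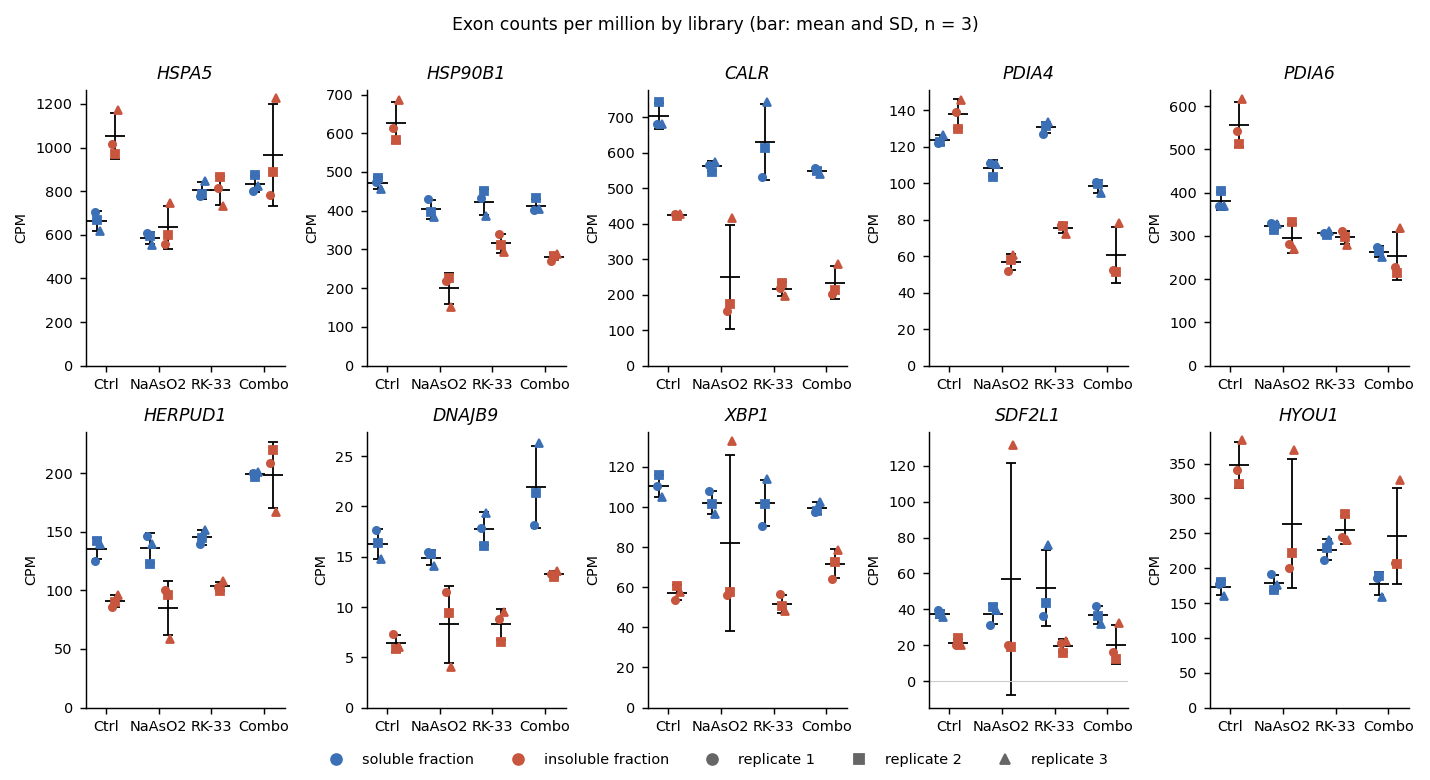
Exon levels of the 10 mRNAs (y axis, CPM, starting at or below 0) in the 4 treatments (x axis), with 1 marker per library coloured by fraction and shaped by replicate, and bars for the mean and SD of 3. Soluble levels of HSP90B1 lie between 383 and 485 CPM throughout, while its insoluble level is above them in Ctrl and below them in the other treatments, and replicate 3 of NaAsO2 insoluble (red triangle) stands high for SDF2L1, XBP1, CALR and HYOU1.

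The first comparison asks where these mRNAs sedimented in unstressed cells. In Ctrl, HYOU1, HSPA5, PDIA6 and HSP90B1 were higher in the insoluble than in the soluble fraction and CALR, HERPUD1, XBP1 and DNAJB9 were lower, so 4 of 10 passed in each direction beside 24.4% of all genes tested higher and 26.6% lower. The median log2 fold change of the 10 was -0.21 and that of all genes -0.03. A CPM value is a share of its library, so that less of an mRNA and more of the others cannot be told apart, nor can fewer cells carrying it from less RNA per cell.

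Among the large chaperones, HSPA5 had 705, 668 and 618 CPM in the soluble and 1018, 969 and 1173 CPM in the insoluble Ctrl libraries. HSP90B1, which encodes the ER Hsp90 GRP94, had 474, 485 and 455 CPM in the soluble and 614, 582 and 685 CPM in the insoluble libraries. HYOU1, a large Hsp70-related protein that acts as nucleotide exchange factor for BiP, had 178, 180 and 160 CPM against 340, 320 and 384 CPM. For all of these every insoluble library lay above every soluble one. The share of all genes tested with such a separation was not counted, here or for libraries and lysates in later comparisons. The log2 fold changes were 0.67 ± 0.14 (SE) for HSPA5 (edgeR adjusted p = 0.000434), 0.41 ± 0.12 for HSP90B1 (edgeR adjusted p = 0.00716) and 1.01 ± 0.18 for HYOU1 (edgeR adjusted p = 0.000102).

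Disulfide isomerases form and rearrange disulfide bonds. PDIA6 had 369, 404 and 369 CPM in the soluble and 543, 513 and 616 CPM in the insoluble Ctrl libraries, a log2 fold change of 0.55 ± 0.12 (edgeR adjusted p = 0.000813). PDIA4 had 122, 123 and 127 CPM against 139, 129.6 and 146 CPM, and its log2 fold change of 0.16 ± 0.12 did not pass (edgeR adjusted p = 0.286), although the groups do not overlap.

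CALR went the other way, with 681, 745 and 682 CPM in the soluble and 427, 422 and 427 CPM in the insoluble Ctrl libraries. Its log2 fold change was -0.73 ± 0.23 (edgeR adjusted p = 0.0128). DNAJB9, XBP1 and HERPUD1 were also lower in the pellet. DNAJB9 had 17.7, 16.4 and 14.8 CPM against 7.36, 5.85 and 5.99 CPM (log2 fold change -1.35 ± 0.24), and XBP1, the transcription factor of the IRE1 arm, had 111, 116 and 105 CPM against 53.5, 60.7 and 57.8 CPM (-0.95 ± 0.21). HERPUD1, a membrane protein of ER-associated degradation, had 125, 142 and 139 CPM in the soluble and 85.8, 90.0 and 96.0 CPM in the insoluble libraries (-0.58 ± 0.15). SDF2L1, which forms a complex with the co-chaperone DNAJB11, had 39.9, 37.4 and 35.5 CPM against 19.9, 23.9 and 20.1 CPM. Its log2 fold change of -0.82 ± 0.50 did not pass with all libraries (edgeR adjusted p = 0.172), but did at -0.87 without replicate 3 of NaAsO2 insoluble (edgeR adjusted p = 0.0028), which also enters the spread of this gene. Across the 10 genes, the log2 fold change between fractions was set against the log2 length of merged exons. Pearson r was 0.68 in Ctrl, -0.20 under NaAsO2, 0.73 under RK-33 and 0.55 in Combo. It is a description over 10 genes measured in the same libraries. The length of merged exons is not that of an mRNA. For HSPA5 it is 6530 bases, 100% of the gene's span with its introns, and for HSP90B1 it is 13092 bases over all annotated transcripts. The r values therefore do not measure a relation to mRNA length. The NaAsO2 value includes SDF2L1, the shortest of the 10 at 1059 bases, at a log2 fold change of 0.59. Without replicate 3 of NaAsO2 insoluble SDF2L1 stood at -0.89, and r was not computed for that setting.

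Under NaAsO2, HYOU1 was the single one of 10 that passed as higher in the insoluble fraction, beside 27.9% of all genes, and 5 of 10 passed as lower, beside 29.7%. Those 5 were CALR, HSP90B1, PDIA4, DNAJB9 and HERPUD1. HSP90B1 had 431, 398 and 383 CPM in the soluble and 219, 226 and 152 CPM in the insoluble NaAsO2 libraries, a log2 fold change of -1.02 ± 0.12 (edgeR adjusted p = 2.46e-07). PDIA4 had 111, 103 and 111 CPM against 52.1, 57.8 and 60.6 CPM (-0.93 ± 0.12). HSPA5 had 608, 596 and 555 CPM against 557, 599 and 745 CPM, so that its fractions overlapped (0.11 ± 0.14, edgeR adjusted p = 0.51). PDIA6 overlapped as well, with 331, 313 and 326 CPM against 280.5, 331 and 270.2 CPM (-0.14 ± 0.12).

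Replicate 3 of NaAsO2 insoluble decided several of these values. SDF2L1 had 20.2 and 19.2 CPM in the first and second insoluble libraries and 132 CPM in that one. XBP1 likewise had 56.3 and 57.5 CPM and then 133 CPM, CALR had 155 and 175 CPM and then 417 CPM, and HYOU1 had 200 and 221 CPM and then 370 CPM. In DNAJB9 and HERPUD1 that library was instead the lowest, at 4.03 and 58.5 CPM. Without it, SDF2L1 turned from a log2 fold change of 0.59 to -0.89 and XBP1 went from -0.32 to -0.81, both then passing as lower. CALR went from -1.18 to -1.73 and stayed past the threshold, whereas HYOU1 went from 0.56 to 0.27 and no longer passed (edgeR adjusted p = 0.0967). With the 6 NaAsO2 libraries fitted alone, 3 of the 10 passed.

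After RK-33 alone, 7 of 10 passed as lower in the insoluble fraction, beside 30.4% of all genes, and 0 of 10 as higher, beside 29.2%. The values were -1.54 ± 0.24 for CALR, -1.38 ± 0.49 for SDF2L1, -1.10 ± 0.23 for DNAJB9, -0.98 ± 0.21 for XBP1, -0.79 ± 0.12 for PDIA4, -0.49 ± 0.15 for HERPUD1 and -0.42 ± 0.12 for HSP90B1. HSPA5 had 777, 787 and 848 CPM in the soluble and 815, 863 and 732 CPM in the insoluble RK-33 libraries, with a log2 fold change of -0.00 ± 0.14. PDIA6 (-0.05 ± 0.12) and HYOU1 (0.17 ± 0.18) did not pass either. HYOU1, HSPA5 and PDIA6 had the highest pellet ratios in Ctrl and passed in neither direction here.

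In Combo, 4 of 10 passed as lower in the insoluble fraction, beside 28% of all genes, and HYOU1 alone passed as higher, beside 24.1%. CALR (-1.23 ± 0.24), DNAJB9 (-0.72 ± 0.22), PDIA4 (-0.69 ± 0.12) and HSP90B1 (-0.55 ± 0.12) were the lower ones. HERPUD1, lower in the pellet in the other treatments, had 200, 197 and 201 CPM in the soluble and 209, 220 and 166 CPM in the insoluble Combo libraries, so that they overlapped (-0.01 ± 0.14). HYOU1 had 186, 189 and 159 CPM against 207, 206 and 326 CPM, and its 0.47 ± 0.18 (edgeR adjusted p = 0.0353) was 0.16 with replicates 1 and 2 of every group alone (edgeR adjusted p = 0.151). Without replicate 3 of Combo soluble, 3 of the 10 passed.

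**Figure D2:**
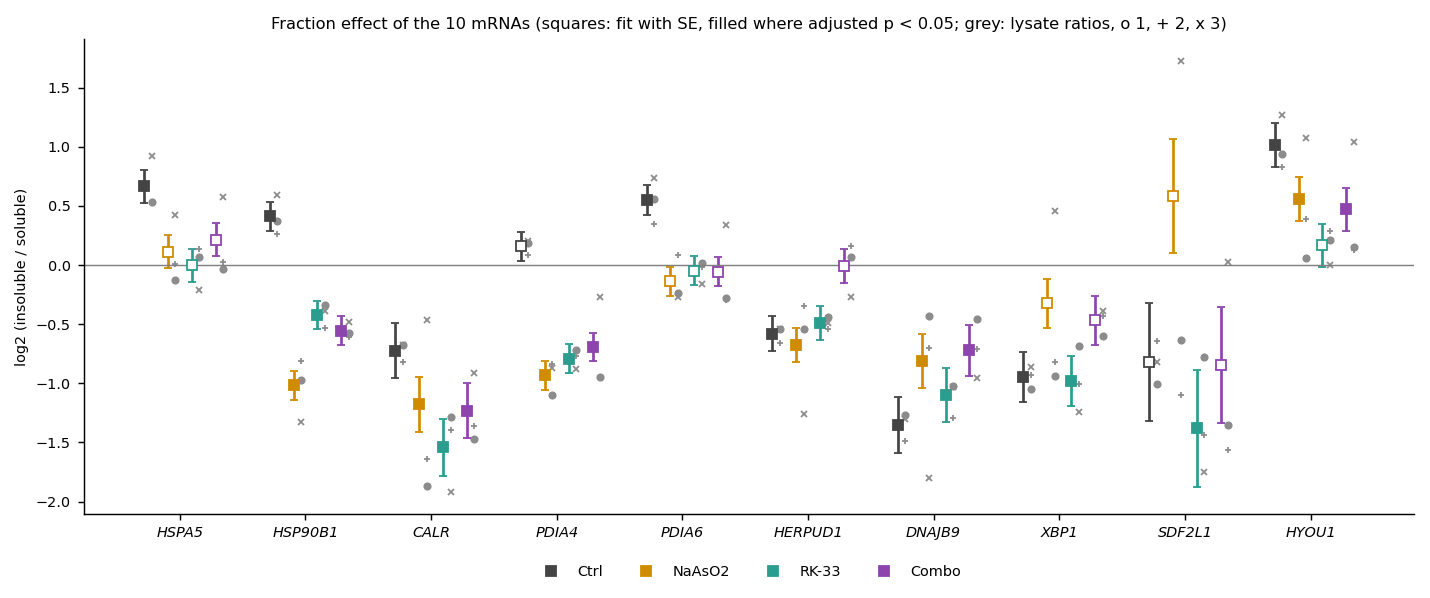
Log2 ratio of insoluble over soluble exon level (y axis) of each mRNA (x axis) in the 4 treatments; squares are fitted values with SE, filled where the adjusted p is under 0.05, and grey marks are the ratios of single lysates. The Ctrl squares of HSPA5, HSP90B1, PDIA6 and HYOU1 are filled above 0, whereas all 3 lysates of HSP90B1 and of PDIA4 lie below 0 in each of the other treatments.

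Whether the fraction effect itself differed between treatments was tested as an interaction. For NaAsO2 against Ctrl it was lower for 4 of 10, beside 11.4% of all genes, and higher for 0 of 10, beside 11%. HSP90B1 changed most of these, by -1.43 ± 0.17 on the log2 scale (edgeR adjusted p = 6.04e-06): its lysate ratios, with same-numbered fractions taken as 1 lysate, were 0.37, 0.26 and 0.59 in Ctrl and -0.98, -0.81 and -1.33 under NaAsO2. PDIA4 changed by -1.09 ± 0.17 (edgeR adjusted p = 0.000109), with lysate ratios of 0.19, 0.08 and 0.20 against -1.10, -0.84 and -0.87. For both genes the 3 lysates of a treatment lay apart from those of the other. PDIA6 changed by -0.69 ± 0.17 (edgeR adjusted p = 0.00648) and HSPA5 by -0.55 ± 0.20 (edgeR adjusted p = 0.0458). The HSPA5 value passed in 10 of 35 alternative settings, those of HSP90B1 and PDIA4 in 35 of 35. Without replicate 3 of NaAsO2 insoluble, 7 of 10 passed, with CALR (-0.96), HYOU1 (-0.69) and, in the other direction, DNAJB9 (0.92) added. The share of all genes that passed in that setting is not given here.

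For RK-33 against Ctrl, the interaction was lower for PDIA4 and HSP90B1, 2 of 10 beside 1.58% of all genes, and higher for 0 of 10 beside 0.606%. PDIA4 changed by -0.95 ± 0.17 (edgeR adjusted p = 0.00407) and HSP90B1 by -0.83 ± 0.17 (edgeR adjusted p = 0.0114). HYOU1 (-0.85 ± 0.26), CALR (-0.82 ± 0.33), HSPA5 (-0.67 ± 0.20) and PDIA6 (-0.60 ± 0.17) did not pass with all libraries, at edgeR adjusted p of 0.0716 to 0.234. Without replicate 3 of NaAsO2 insoluble, which belongs to neither group compared but enters the shared spread, all 4 of them passed, giving 6 of 10. The same number passed in a fit of the Ctrl and RK-33 libraries alone. The 1.58% is the share with all libraries, and the share of all genes in these other fits is not given here. The NaAsO2 and RK-33 comparisons use the same Ctrl libraries and are not independent of each other.

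Combo did not differ from NaAsO2 in the fraction effect of any of the 10 at this threshold, with 0 higher beside 0.136% of all genes and 0 lower beside 0.221%. HERPUD1 had the highest value, 0.67 ± 0.20 (edgeR adjusted p = 0.155). Against RK-33 the counts were also 0 higher, beside 0.345%, and 0 lower, beside 0.136%. At an unadjusted p under 0.05, edgeR had 3 of 10 against NaAsO2 and 1 of 10 against RK-33, and DESeq2 and the likelihood ratio test called 0 in both. With replicates 1 and 2 of every group, 1 of 10 passed in each of these comparisons, namely HERPUD1 at 0.54 and 0.60. Few genes of any kind passed in these interactions.

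Treatments were then compared within each fraction. These shares of a library do not separate a change in the level of an mRNA from a change in its sedimentation. In the soluble fraction, NaAsO2 against Ctrl gave 0 of 10 higher, beside 6.31% of all genes, and 0 of 10 lower, beside 7.0%. At an unadjusted p under 0.05 edgeR had 0 as well, and DESeq2 and the likelihood ratio test called 0. CALR had the lowest value, -0.32 ± 0.23 (edgeR adjusted p = 0.379), with 567, 546 and 575 CPM against 681, 745 and 682 CPM in Ctrl. The NaAsO2 libraries also lay below every Ctrl library for HSPA5, HSP90B1, PDIA4 and PDIA6, with log2 fold changes of -0.18 to -0.24. In a fit of the Ctrl and NaAsO2 libraries alone these 5 genes passed.

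In the insoluble fraction, 5 of 10 fell with NaAsO2, beside 21.8% of all genes, and 1 of 10 rose, beside 21.2%. HSP90B1 fell by 1.65 ± 0.12 on the log2 scale (edgeR adjusted p = 2.89e-09), from 614, 582 and 685 CPM to 219, 226 and 152 CPM. PDIA4 fell by 1.28 ± 0.12 (edgeR adjusted p = 1.13e-07), PDIA6 by 0.92 ± 0.12, CALR by 0.77 ± 0.23 and HSPA5 by 0.73 ± 0.14. These 5 are abundant folding factors, and none of their insoluble NaAsO2 libraries reached a Ctrl library. For CALR the highest NaAsO2 library, at 417 CPM, came close to the lowest Ctrl library, at 422 CPM. SDF2L1 passed as higher (1.40 ± 0.50, edgeR adjusted p = 0.027) through 1 library, and without replicate 3 of NaAsO2 insoluble its value was -0.047 (edgeR adjusted p = 0.903). In that setting CALR stood at -1.29, and DNAJB9 (0.77) and HYOU1 (-0.66) passed too. Fitted on the Ctrl and NaAsO2 libraries alone, 3 of 10 passed, namely HSP90B1, PDIA4 and PDIA6.

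RK-33 against Ctrl had 0 of 10 higher in the soluble fraction, beside 2.09% of all genes, and 0 of 10 lower, beside 3.24%. Unadjusted, 2 of 10 had an edgeR p under 0.05, and DESeq2 and the likelihood ratio test called 0. With replicates 1 and 2 alone 3 passed, and 2 with the Ctrl and RK-33 libraries fitted alone. In the insoluble fraction 4 of 10 fell, beside 8.19%, and 0 of 10 rose, beside 5.71%. HSP90B1 fell by 0.99 ± 0.12 (edgeR adjusted p = 8.43e-06), to 341, 311 and 294 CPM. CALR fell by 0.98 ± 0.23, to 219, 233 and 196 CPM. PDIA6 and PDIA4 fell by 0.91 ± 0.12 and 0.87 ± 0.12. Each of these 4 passed in 34 of 34 alternative settings, and all of their RK-33 libraries lay below all Ctrl libraries. HSPA5 (-0.39 ± 0.14, edgeR adjusted p = 0.065) and HYOU1 (-0.45 ± 0.18, edgeR adjusted p = 0.11) did not pass, though their groups do not overlap.

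**Figure D3:**
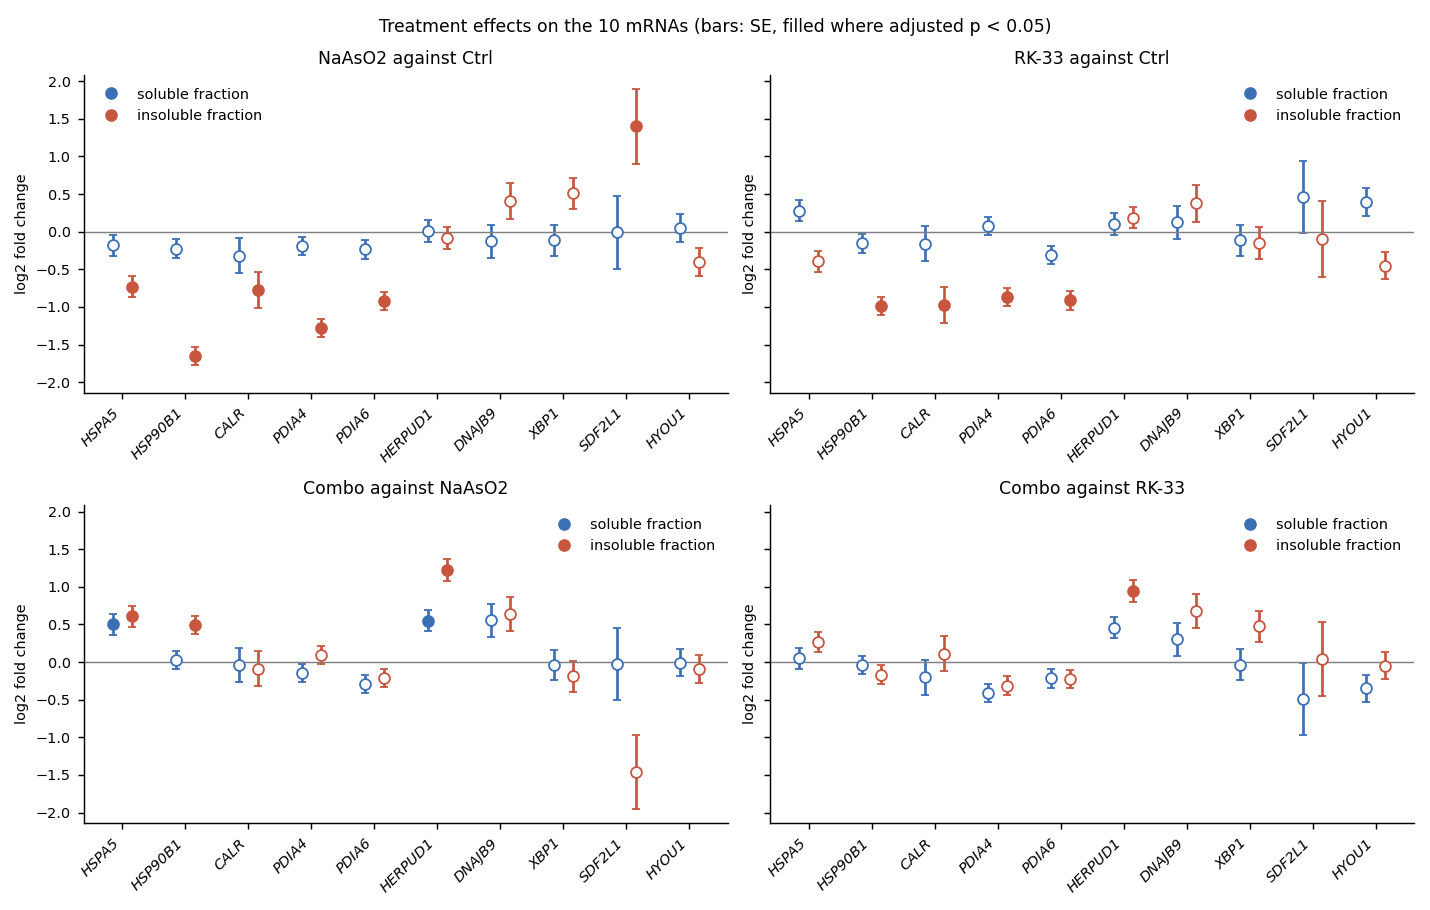
Log2 fold change of exon level (y axis) for the 10 mRNAs (x axis) in 4 treatment comparisons, with SE bars, coloured by fraction and filled where the adjusted p is under 0.05. In the upper panels the filled points are all of the insoluble fraction, and in the lower panels the highest filled points are those of HERPUD1.

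Combo was compared with each agent alone. Against NaAsO2 in the soluble fraction, HERPUD1 and HSPA5 rose, 2 of 10 beside 4.79% of all genes, and 0 of 10 fell, beside 1.67%. HERPUD1 had 146, 122 and 140 CPM under NaAsO2 and 200, 197 and 201 CPM in Combo, a log2 fold change of 0.55 ± 0.14 (edgeR adjusted p = 0.0246). HSPA5 went from 608, 596 and 555 CPM to 800, 873 and 824 CPM (0.51 ± 0.14, edgeR adjusted p = 0.0321). The groups do not overlap for either gene, but the number that passed went from 2 to 0 when any NaAsO2 soluble library or replicate 3 of Combo soluble was left out, and to 1 without replicate 2 of Combo soluble.

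Against NaAsO2 in the insoluble fraction, HERPUD1, HSPA5 and HSP90B1 rose, 3 of 10 beside 6.88% of all genes, and 0 of 10 fell, beside 6.9%. HERPUD1 went from 101, 96.0 and 58.5 CPM to 209, 220 and 166 CPM, a log2 fold change of 1.22 ± 0.15 (edgeR adjusted p = 1.31e-05). It stood at 0.96 without replicate 3 of NaAsO2 insoluble. HSPA5 rose by 0.61 ± 0.14, from 557, 599 and 745 CPM to 782, 888 and 1229 CPM, with replicate 3 the highest in both groups. HSP90B1 rose by 0.50 ± 0.12, and by 0.29 without replicate 3 of NaAsO2 insoluble (edgeR adjusted p = 0.0683). CALR turned from -0.09 to 0.45 without it and then passed as higher (edgeR adjusted p = 0.0263). Deviations from the group means were correlated for same-numbered libraries of these groups (r of 0.43 to 0.69), in which replicate 3 stood apart. The labels state no pairing. With the replicate as a block 4 of 10 passed, SDF2L1 being added as lower at -1.30 (edgeR adjusted p = 0.0448). Fitted on the NaAsO2 and Combo libraries alone, 0 of 10 passed.

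Against RK-33 in the soluble fraction, 0 of 10 rose, beside 2.9% of all genes, and 0 of 10 fell, beside 0.742%. Unadjusted, 2 of 10 had an edgeR p under 0.05, and DESeq2 and the likelihood ratio test called 1 each. In the insoluble fraction HERPUD1 rose by 0.94 ± 0.15 (edgeR adjusted p = 0.000229), from 103, 99.5 and 108 CPM, and was the single one of 10, beside 4.17%, with 0 of 10 lower beside 2.95%. With replicates 1 and 2 alone 6 of 10 passed there, with DNAJB9 (0.76) and XBP1 (0.35) as higher and PDIA4 (-0.58), PDIA6 (-0.47) and HYOU1 (-0.35) as lower. HERPUD1 was thus higher in the Combo pellet than in that of either agent alone. These comparisons share the Combo libraries.

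Related genes were read from 5 lists, described by counts alone. Of all genes tested in NaAsO2 against Ctrl, 21.2% rose and 21.8% fell in the insoluble and 6.31% and 7.0% in the soluble fraction. In RK-33 against Ctrl 5.71% rose and 8.19% fell in the insoluble and 2.09% and 3.24% in the soluble fraction, and the median log2 fold change over all genes lay between -0.02 and 0.03 in these 4 comparisons. Of 35 other ER folding and translocation genes tested, 26 fell and 0 rose with NaAsO2 in the insoluble fraction (median -0.68), among them PDIA3 (-1.49) and PPIB (-1.30), which assist folding in the ER lumen, and ERP29. With RK-33, 24 of these 35 fell there and 0 rose (median -0.69), led by KDELR1 (-1.51), a receptor that returns escaped ER proteins. In the soluble fraction 9 of the 35 fell and 1 rose with NaAsO2, and 16 fell and 0 rose with RK-33. Of 30 genes for secreted and membrane cargo, 21 fell and 2 rose with NaAsO2 in the insoluble fraction, and 22 fell and 0 rose with RK-33. LAMP1 fell by 1.30 and 1.20 on the log2 scale and TIMP1 by 1.14 and 1.18, in the order NaAsO2 and RK-33. The members' counts therefore stood beside counts in the same direction in both of these lists.

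The next list held 18 UPR sensors and PERK-ATF4 arm genes. Shares of all genes given above for NaAsO2 and RK-33 against Ctrl apply to this and the remaining lists. With NaAsO2 in the insoluble fraction 10 rose and 5 fell (median 0.55), with ATF3 at 1.87 and PPP1R15A at 1.83, while the sensor ATF6 fell by 1.32. With RK-33, 5 of these 18 rose and 3 fell in the soluble fraction, with ATF3 at 1.76 and DDIT3, which encodes CHOP, at 1.71. In Combo against NaAsO2, soluble, 8 of 18 rose, beside 4.79% of all genes tested, and 0 fell, beside 1.67%. ATF3 (2.31) and CHAC1 (2.08) had the smallest adjusted p. The paper reports the opposite direction for ATF3, a decrease with both agents relative to NaAsO2 alone. Its comparison of these treatments combined the fractions and scaled them to added spike-in RNA. The value here is of the soluble fraction scaled by TMM. Over the mean of both fractions, a comparison added after seeing the data, 9 of these 18 rose and 0 fell in Combo against NaAsO2. Of 17666 genes tested, 1903 rose and 1710 fell there. The cause of the difference from the paper was not tested. Of 19 genes of ER-associated degradation, 8 fell and 3 rose with NaAsO2 in the insoluble fraction, beside 21.8% and 21.2% of all genes tested. Among the 25 cytosolic and mitochondrial chaperone genes, 22 rose and 0 fell with NaAsO2 in the soluble fraction, and 15 fell and 1 rose in the insoluble fraction. The fraction effect of this list was lower in 20 of 25 for NaAsO2 against Ctrl, beside 11.4% of all genes tested, including STIP1 (-1.72) and HSP90AB1 (-1.43). A lower fraction effect was thus also measured for chaperones translated outside the ER. It was lower in 17 of 35 other ER folding and translocation genes and 13 of 30 cargo genes, and higher in 1 and 3. For RK-33 against Ctrl it was lower in 11 of the 25, 5 of the 35 and 8 of the 30, and higher in 1, 0 and 0. Of all genes tested, 1.58% were lower there and 0.606% higher.

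Introns give a second reading of the same genes. HSPA5 has no intron row, since the merged exons of its annotated transcripts cover all 6530 bases of its span and reads from its introns count as exonic. SDF2L1 introns had a mean under 1 CPM, which leaves 8 genes. Levels are CPM of the intron table, and treatments were compared over the mean of both fractions. With RK-33 against Ctrl, 4 of 8 rose, beside 3.76% of all genes with introns tested, and 0 of 8 fell, beside 2.91%. HERPUD1 introns had 40.1, 41.6 and 36.9 CPM in Ctrl soluble and 75.7, 71.8 and 76.0 CPM in RK-33 soluble, and the log2 fold change over both fractions was 0.98 ± 0.11 (edgeR adjusted p = 1.25e-07). XBP1 rose by 1.05 ± 0.21, HSP90B1 by 1.01 ± 0.22 and CALR by 1.00 ± 0.19. The exon levels of the same genes, also over both fractions, gave other values, with introns and exons each scaled within their own table. HSP90B1 exon counts fell by 0.57 ± 0.09 on the log2 scale (edgeR adjusted p = 5.73e-05), and CALR had -0.57 ± 0.16 (edgeR adjusted p = 0.0206, and 0.059 without replicate 1 of RK-33 soluble). HERPUD1 at 0.14 ± 0.10 and XBP1 at -0.13 ± 0.15 did not pass for exons. In this exon comparison, added after seeing the data, 4 of 10 fell, beside 9.13% of all genes tested, with PDIA6 (-0.61) and PDIA4 (-0.40) as the others, and 0 rose, beside 6.8%. In the soluble fraction alone the exon values of the 4 genes whose introns rose lay between -0.16 and 0.10, and none passed. DNAJB9 introns, at 0.67 to 3.44 CPM in these groups, had 1.18 ± 0.38 and did not pass (edgeR adjusted p = 0.0592).

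Combo soluble held the highest mean intron levels of HERPUD1, CALR and DNAJB9. Against NaAsO2, 5 of 8 rose, beside 17.2% of genes with introns tested, and 0 of 8 fell, beside 16.1%. HERPUD1 introns went from 62.8, 47.2 and 62.8 CPM to 228, 236 and 184 CPM in the soluble fraction and from 44.8, 38.8 and 43.7 CPM to 142, 127 and 133 CPM in the insoluble fraction. Its log2 fold change was 1.78 ± 0.10 (edgeR adjusted p = 7.11e-14), and all Combo libraries lay above all NaAsO2 libraries. DNAJB9 rose by 1.89 ± 0.35, HSP90B1 by 1.62 ± 0.23, CALR by 1.58 ± 0.18 and XBP1 by 1.09 ± 0.21. PDIA4 (0.22 ± 0.21), PDIA6 (-0.12 ± 0.14) and HYOU1 (0.50 ± 0.25) did not pass. These 5 calls passed in 34 of 34 alternative settings.

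**Figure D4:**
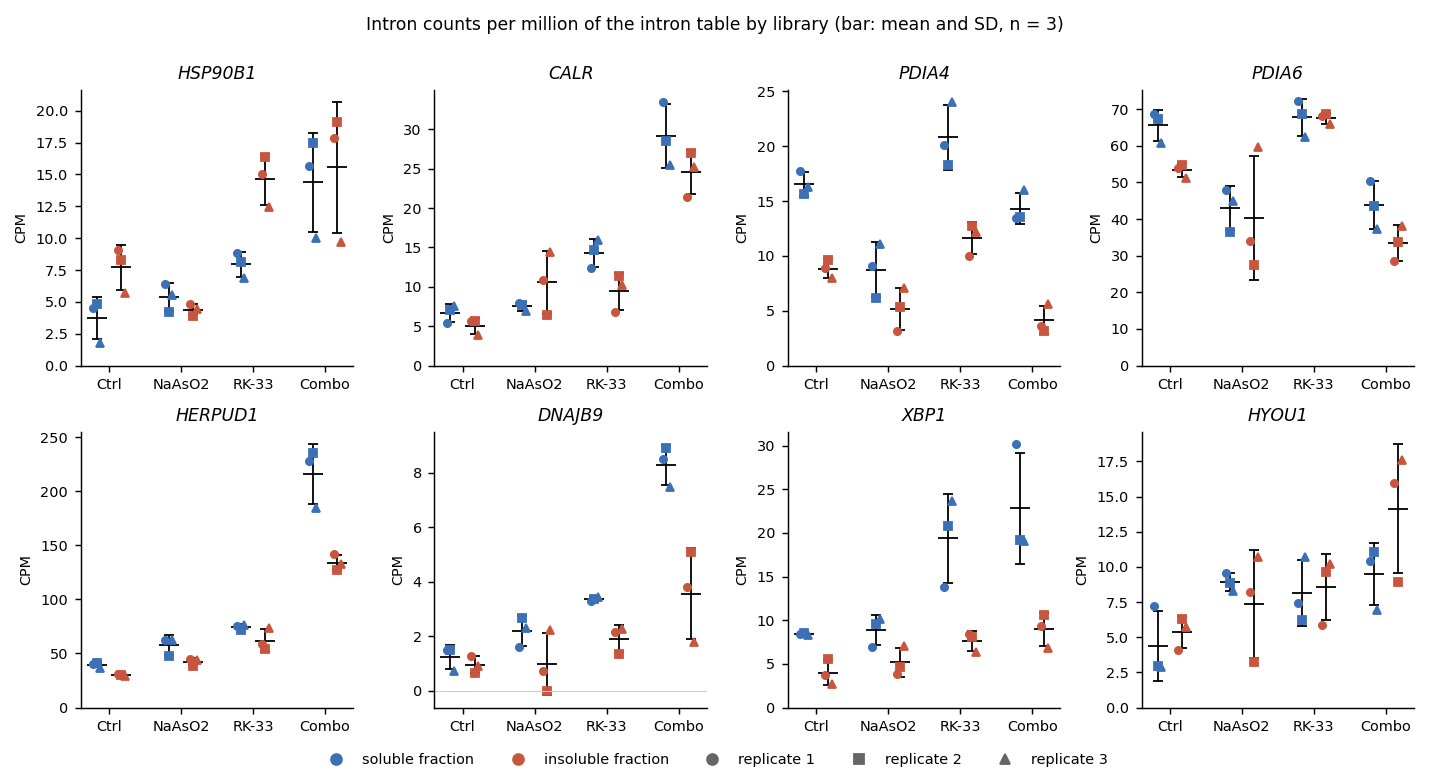
Intron levels (y axis, CPM of the intron table) for the 8 genes tested, in the 4 treatments (x axis), with 1 marker per library coloured by fraction and shaped by replicate, and bars for the mean and SD of 3. HERPUD1 stands at 127 to 236 CPM in Combo and at 29.2 to 76.0 CPM in the other treatments, while every NaAsO2 and Combo library of PDIA4 and PDIA6 lies below the RK-33 libraries of the same fraction.

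Against RK-33, Combo had 3 of 8 intron levels higher, beside 22.1%, and 2 of 8 lower, beside 18.8%. HERPUD1 rose by 1.33 ± 0.10, CALR by 1.20 ± 0.16 and DNAJB9 by 1.10 ± 0.30, whereas PDIA4 fell by 1.01 ± 0.18 and PDIA6 by 0.82 ± 0.13. NaAsO2 against Ctrl gave 2 of 8 higher, beside 14.4%, and 2 of 8 lower, beside 12.1%. PDIA4 introns fell by 0.88 ± 0.19, from 17.8, 15.6 and 16.3 CPM to 9.05, 6.14 and 11.1 CPM in the soluble fraction, and PDIA6 introns fell by 0.51 ± 0.14. CALR (0.62 ± 0.21) and HERPUD1 (0.52 ± 0.11) rose, but with the introns scaled by the factors of the exon table, which moved the median of all genes from 0.06 to -0.50, CALR stood at 0.09 and HERPUD1 turned to -0.034, and neither passed. Without replicate 3 of NaAsO2 insoluble CALR stood at 0.50 (edgeR adjusted p = 0.0732).

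Per 100 exon counts, HERPUD1 carried 8.33 ± 1.39 intron counts in Ctrl soluble, 9.37 ± 0.60 under NaAsO2, 13.04 ± 2.96 under RK-33 and 30.6 ± 2.21 in Combo (SD, n = 3). In the insoluble fraction the values were 15.2 ± 2.53, 15 ± 8.15, 27.2 ± 2.50 and 22.2 ± 1.59. It had the highest ratio of the 8 genes in every group. CALR went from 0.27 ± 0.05 in Ctrl soluble to 1.502 ± 0.16 in Combo soluble, and PDIA4 from 3.82 ± 0.68 to 1.75 ± 0.23 under NaAsO2 soluble. These ratios are descriptions and were not tested. Reads from the intron rows can come from unspliced or partly spliced RNA, and counts per gene cannot show the cytoplasmic splicing of XBP1.

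Between fractions, intron levels in Ctrl were higher in the pellet for HSP90B1 (1.03 ± 0.34), 1 of 8 beside 18.2% of genes with introns tested, and lower for XBP1, PDIA4 and HERPUD1, 3 of 8 beside 21.4%. Under NaAsO2, HERPUD1 was lower (-0.43 ± 0.15), 1 of 8 beside 10.9%, and 0 of 8 were higher, beside 11.9%. Without replicate 3 of NaAsO2 insoluble 5 of 8 passed, with XBP1 (-1.09), PDIA4 (-1.07), PDIA6 (-0.47) and DNAJB9 (-2.30) added as lower. After RK-33 HSP90B1 was again higher (0.86 ± 0.28), 1 of 8 beside 23%, and 3 of 8 were lower, beside 24.8%, namely XBP1, PDIA4 and CALR. In Combo 4 of 8 were lower, beside 16.3%, with PDIA4 lowest at -1.81 ± 0.27, and 0 of 8 were higher, beside 13.6%. Scaling by the exon table moved the median over all intron rows from -0.11 to 0.58 in Ctrl and from -0.09 to 0.76 in RK-33, and it turned HERPUD1 in Ctrl (0.29) and CALR (0.29) and PDIA4 (0.036) in RK-33, so the direction of these values depends on the scaling.

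Over the 24 libraries the exon levels of the 10 mRNAs did not move as 1 block. The pair with the highest Pearson r of log2 CPM was HSP90B1 and PDIA4 at 0.88, followed by CALR and PDIA4 and by HERPUD1 and DNAJB9, both at 0.83, while DNAJB9 and HYOU1 had -0.81. Among 10259 genes that averaged 10 CPM or more and had a count in every library, those most like HSPA5 were DAGLB (0.81), EPHB3 (0.77), EGFR (0.77), SUN2 (0.76) and SUSD5 (0.76). These values describe the same 24 libraries, share their fractions and depth, and carry no test. Among the 394 circRNAs listed in the deposited table, 0 came from the 10 genes. The counts do not use strand, and antisense or overlapping genes touch HSP90B1, CALR, PDIA6, HERPUD1 and HYOU1. The overlapping genes had at most 943 counts in all libraries together, against 105488 for HSP90B1, which overlaps that gene.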

How the data were processed

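RNA from the soluble and insoluble fractions of U2OS lysates was sequenced as 24 rRNA-depleted libraries, grouped by the labels. The authors aligned reads with STAR 2.7.2b (SAMtools 1.2, per the labels) to GRCh38 and deposited raw counts of fragments per gene from featureCounts with GENCODE 40, without strand, for exons and for introns with an overlap of at least 25 bases. Introns were genes minus merged exons. Circular RNA counts were deposited for 394 circRNAs, and no column belonged to another series. The 10 genes and the gene lists were chosen with earlier results of these data known.

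Genes averaging 1 CPM or more (17666 for exons, 17406 for introns) were fitted with edgeR 4.0.16 in R 4.3.3 (TMM factors, 8 groups, quasi-likelihood F-test), with Benjamini-Hochberg adjustment over all genes tested and a threshold of 0.05. This design was kept from the written plan, and its scripts were tested on simulated data. Genes named from the lists are those past the threshold with the smallest adjusted p, at most 3 a direction, with a mean of at least 10 CPM. DESeq2 1.42.0, other scalings, filters and tests, replicate blocks and each library left out in turn were alternatives, and a fit of replicates 1 and 2 alone was added after seeing the data. Pairs of replicates differed by 2.39 to 142 in chi-square divided by its degrees of freedom, so no library repeated another of its own group. Libraries of different groups were not compared in this way. Deviations of same-numbered libraries correlated by over 0.1 in all 3 pairs for NaAsO2 and Combo insoluble alone (0.43 to 0.69). Spike-in counts were not used here.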

Additional observations from a re-analysis of the deposited data

Results flagged for a closer look

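The fraction effect, the log2 ratio of the insoluble to the soluble level, differed between treatments for 4 of the 10 mRNAs by edgeR's interaction test. For NaAsO2 against Ctrl, the difference was -1.43 for HSP90B1, -1.09 for PDIA4, -0.69 for PDIA6 and -0.55 for HSPA5. Each of the 3 NaAsO2 lysates of these 4 genes had a lower ratio than each Ctrl lysate. For RK-33 against Ctrl, the difference was -0.83 for HSP90B1 and -0.95 for PDIA4, with the same separation of lysates. Both comparisons use the same Ctrl libraries. The share of RN7SL1 in the exon counts, 0.648% to 0.868% in Ctrl insoluble and 0.604% to 0.799% in RK-33 insoluble, overlapped between these groups, and in NaAsO2 insoluble it was 0.426%, 0.798% and 5.79%. The part of carry-over from the soluble fraction in the NaAsO2 results was not tested, and without the library at 5.79% the 4 NaAsO2 differences were -1.19, -1.05, -0.54 and -0.60 in the order given, each still past the threshold. For NaAsO2 against Ctrl with all libraries, HSPA5 was nearest the threshold of the 4 genes (edgeR adjusted p = 0.0458). It did not pass in most of the alternative settings. Groups of 3 libraries are too small for a test of single outlying values.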

How the results depend on the processing

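Of 8302 values of single genes under an alternative, 7890 kept their direction and their side of the threshold or passed in neither setting (258 of these turned in sign with neither value past it), 192 no longer passed, 208 newly passed and 12 turned. All 12 turned without replicate 3 of NaAsO2 insoluble, with replicates 1 and 2 alone (added after seeing the data) or on scaling introns by the exon table. Without that library and with replicates 1 and 2 alone, in this order, SDF2L1 stood at -0.89 and -0.84 between the NaAsO2 fractions and at -0.047 and -0.096 in NaAsO2 against Ctrl, insoluble, and CALR stood at 0.45 and 0.30 in Combo against NaAsO2, insoluble. Over all libraries left out in turn these 3 values ran from -0.89 to 1.05, from -0.047 to 1.85 and from -0.37 to 0.45. With exon table scaling, intron values between fractions were 0.29 for HERPUD1 in Ctrl, 0.29 for CALR, 0.036 for PDIA4, 0.84 for PDIA6 and 0.58 for HERPUD1 in RK-33, and HERPUD1 stood at -0.034 in NaAsO2 against Ctrl.

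The numbers of genes called, of 10 for exons and 8 for introns, moved by over 1.5 times as follows, with the number of the reported fit after the word from. DESeq2 gave 1 from 0 in Combo against RK-33, soluble, 2 from 1 in its insoluble counterpart and 5 from 2 in the RK-33 fraction effect against Ctrl. The likelihood ratio test gave 5 from 3 in Combo against NaAsO2, insoluble, 1 from 0 and 2 from 1 in Combo against RK-33, soluble and insoluble, and 2 from 1 in NaAsO2 intron fractions. Fitting just the groups compared gave 3 from 6 for the NaAsO2 fractions, 5 from 0 and 3 from 6 in NaAsO2 against Ctrl, soluble and insoluble, 2 from 0 in RK-33 against Ctrl, soluble, 4 from 2 and 0 from 3 in Combo against NaAsO2, 3 from 0 and 3 from 1 in Combo against RK-33, 2 from 4 and 6 from 2 in the fraction effects of NaAsO2 and RK-33 against Ctrl, and 0 from 1 in NaAsO2 intron fractions. Library size alone gave 3 from 0 in NaAsO2 against Ctrl, soluble, 1 from 0 and 2 from 1 in Combo against RK-33, 1 from 2 in the RK-33 fraction effect and 3 from 1 in NaAsO2 intron fractions. Without a filter on low counts the numbers were 1 from 2 in Combo against NaAsO2, soluble, 3 from 1 in Combo against RK-33, insoluble, 4 from 2 in the RK-33 fraction effect, 1 from 0 in that of Combo against NaAsO2 and 0 from 1 in NaAsO2 intron fractions. Exon table scaling gave 1 from 4, 0 from 1 and 2 from 4 for the intron fractions of Ctrl, NaAsO2 and Combo. Replicates 1 and 2 alone gave 2 from 0 in NaAsO2 against Ctrl and 3 from 0 in RK-33 against Ctrl, both soluble, 6 from 3 in Combo against NaAsO2, insoluble, 2 from 0 and 6 from 1 in Combo against RK-33, 7 from 4, 4 from 2, 1 from 0 and 1 from 0 in the fraction effects of NaAsO2 and RK-33 against Ctrl and of Combo against NaAsO2 and RK-33, and 2 from 1 in NaAsO2 intron fractions. A log2 fold change of at least 1 as a further limit left 2 from 8, 2 from 6, 3 from 7 and 1 from 5 for the fractions of Ctrl, NaAsO2, RK-33 and Combo, 3 from 6 and 0 from 4 in NaAsO2 and RK-33 against Ctrl, insoluble, 0 from 4 in RK-33 against Ctrl over both fractions, 0 from 2 and 1 from 3 in Combo against NaAsO2, 0 from 1 in Combo against RK-33, insoluble, 2 from 4 and 0 from 2 in the fraction effects of NaAsO2 and RK-33 against Ctrl, and, for introns, 2 from 4, 0 from 1 and 1 from 4 for the fractions of Ctrl, NaAsO2 and RK-33, 0 from 4 in NaAsO2 against Ctrl and 2 from 4 in RK-33 against Ctrl. The cause was not tested for these, beyond the stricter limit itself. Shares of all genes given with the results are those of the fit with all libraries. They are not given for these settings or for libraries left out.

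Leaving out each of the 24 libraries in turn gave 7 to 9, 6 to 7, 6 to 7 and 3 to 7 genes for the fractions of Ctrl, NaAsO2, RK-33 and Combo. For NaAsO2 against Ctrl the range was 0 to 1 in soluble and 5 to 7 in insoluble libraries, for RK-33 against Ctrl 0 to 1 and 4 to 6 (3 to 4 over both fractions), for Combo against NaAsO2 0 to 3 and 2 to 5, and for Combo against RK-33 0 to 2 and 1 to 3. The fraction effects gave 3 to 7 for NaAsO2 and 1 to 6 for RK-33 against Ctrl, 0 to 0 for Combo against NaAsO2 and 0 to 2 for Combo against RK-33. For introns the ranges were 2 to 4, 0 to 5, 2 to 4 and 3 to 5 between the fractions, and 3 to 5, 4 to 6, 5 to 6 and 5 to 6 in NaAsO2 and RK-33 against Ctrl and Combo against NaAsO2 and RK-33. Beside those named with the results, these libraries moved a number by over 1.5 times when left out. With replicate 3 of NaAsO2 insoluble left out, 1 gene passed in NaAsO2 and 1 in RK-33 against Ctrl, both soluble, 2 and 3 in Combo against RK-33, soluble and insoluble, and 2 in the fraction effect of Combo against RK-33. Leaving out replicate 3 of Combo insoluble, 5 passed in Combo against NaAsO2, insoluble, 1 and 3 in Combo against RK-33, soluble and insoluble, and 5 in the RK-33 fraction effect, which had 1 without replicate 2 of RK-33 soluble or replicate 3 of RK-33 insoluble. Without replicate 1 of NaAsO2 insoluble, 5 passed in Combo against NaAsO2 and 2 in Combo against RK-33, both insoluble. For intron fractions, 2 passed in Ctrl without replicate 1 or 3 of Ctrl insoluble and 2 in RK-33 without replicate 3 of RK-33 soluble, and in NaAsO2 2 passed without replicate 2 of NaAsO2 soluble and 0 without replicate 1 or 3 of NaAsO2 soluble or replicate 1 or 2 of NaAsO2 insoluble.

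For pairing, deviations of same-numbered libraries correlated between -0.295 and 0.126 for the fractions of a treatment, over 0.1 in 2 of 12 pairs, so the block was kept as an alternative there. A block for each lysate gave 0 from 1 in NaAsO2 intron fractions, and the replicate block over all libraries moved no number of calls by over 1.5 times, with 4 from 3 in Combo against NaAsO2, insoluble. Genes with few counts, such as DNAJB9 introns at 0 to 8.90 CPM, are limited by depth.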

Other observations

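Further genes of the UPR lists had values in the insoluble fraction that were not described with the chaperones. ATF6, the sensor that moves to the Golgi and is cut there, fell by 1.32 on the log2 scale with NaAsO2 and by 0.71 with RK-33. CHAC1, a target of the PERK arm, rose by 1.53 and 1.32 in the same comparisons, which share the Ctrl libraries. Of the ER-associated degradation genes, UFD1 had a fraction effect that differed between NaAsO2 and Ctrl by -1.51 and OS9 by -1.19, while EDEM1 differed by 0.87 and EDEM3 by 0.83. UFD1 and OS9 also had a lower fraction effect in RK-33 than in Ctrl, at -0.53 and -0.98. All of these passed edgeR's test, and they were named by the rule used for the lists.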
